A study of Drosophila melanogaster with 9 samples.

Results

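The proteasome is the barrel-shaped protease that degrades ubiquitin-tagged proteins, and the genes of its subunits were followed in cells sorted from Drosophila wing imaginal discs, the larval epithelial sacs that form the adult wing. Genes were taken where the probe table's symbol began with Pros, Rpn or Rpt and went on with a lower case letter or a digit, which gave 41 of the 11982 genes tested. Of these, 26 encode subunits of the proteasome, 14 are paralogs with a T or R after the subunit's name, most of them known from the fly testis, and 1, Prosap, encodes a synaptic scaffold protein and no subunit. Each of the 26 subunit genes was measured by 1 probe set. Prosalpha1, Prosbeta1, Rpt1, Rpt6, Rpn9 and Rpn10 were not analysed here. The 26 genes lie on chromosome arms X (3 genes), 2L (4), 2R (7), 3L (4) and 3R (8).

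RNA was measured on 9 Affymetrix arrays, 3 biological replicates for each of 3 sorted populations. Delaminating cells were positive for RFP and for an MMP1-GFP reporter, posterior cells were positive for RFP alone, and anterior cells were negative for both. All came from w1118 larvae about 8 days old in which en-gal4, a driver of the posterior compartment, expressed p35, a double-stranded RNA against asp and RFP, so the anterior cells came from the same discs without driver activity. p35 is a viral inhibitor of caspases, and asp encodes a spindle pole protein whose loss disturbs chromosome segregation. The series as titled concerns gene dosage imbalance, and the comparisons ask whether transcripts of the protein degradation machinery differed between cells with and without asp knockdown, and between delaminating cells and those that had not delaminated. The labels do not say how many discs were pooled for an array.

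The core particle of the proteasome is a stack of alpha and beta rings, in which the outer alpha subunits gate the entrance and certain beta subunits carry the protease sites inside. The regulatory particle sits on the alpha ring. Its base holds the Rpt ATPases, which unfold substrates and push them into the core, and the ubiquitin receptor Rpn13. Its lid holds most of the Rpn subunits, among them Rpn11, which removes ubiquitin. In flies, as in mammals, a shortage of proteasome activity raises the transcription of many subunit genes together through a factor of the Nrf family, Cnc in the fly.

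Signals are RMA values on the log2 scale, so that a difference of 1 is a doubling. The array medians over all probe sets but the controls lay between 7.48 and 7.57. Over the genes tested the median was 7.66 on anterior replicate 3, against 7.86 to 7.94 on the others. Across genes, anterior replicate 3 correlated with the other arrays at 0.889 to 0.915, against 0.943 to 0.987 among the other 8 arrays, and its upper quartile over genes was 8.93, against 9.27 to 9.35 on the others. All 26 subunit genes had signals above the lower quartile of every array (6.05 to 6.36). Hemocyte markers, genes of larval blood cells, stood high on delaminating replicate 2, where 9 of 9 had the highest signal of their group and the summed linear signal was 16218, against 4442 and 3370 on the other delaminating arrays. The summed hemocyte signal was 2420 to 4227 on posterior and 11218 to 15287 on anterior arrays, but the anterior sum was mostly that of 2 collagen genes, Col4a1 and vkg. The other 7 hemocyte genes, split off after their values were seen, summed to 1622 to 8076 on delaminating, 688 to 1880 on posterior and 1206 to 3840 on anterior arrays. Of the 9 genes, 9 had a higher mean in delaminating than in posterior cells, 3 in posterior than in anterior cells and 7 in delaminating than in anterior cells, at median log2 differences of 1.33, -1.13 and 0.70. The gene srp, a defining hemocyte factor, lay below the lower quartile on 8 of 9 arrays, at 3.3 to 5.04. The exception was delaminating replicate 2, at 7.35. Muscle precursor markers summed to 1260 to 2419 on delaminating, 2602 to 3127 on posterior and 12255 to 15407 on anterior arrays, and 6 markers of the disc epithelium to 11244 to 12085, 12213 to 13623 and 9185 to 12443. The part of these cells in the values below was not tested. In bulk samples fewer cells of a type and less RNA per cell cannot be told apart.

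Most of the 26 subunit genes had their highest mean signal in delaminating and their lowest in anterior cells. The group mean was highest in delaminating cells for 21 genes, in posterior cells for 4 and in anterior cells for 1, against 35.5%, 35.6% and 28.8% of all genes. It was lowest in anterior cells for 25, against 45.7% of all genes. The order delaminating above posterior above anterior held for 21 of the 26, against 2998 of all 11982 genes. Prosalpha2, Prosalpha6, Prosbeta3, Prosbeta6 and Rpn1 had another order. The genes share 9 arrays, so these counts are not independent observations. No single gene passed the test. limma called 0 of the 26 at a Benjamini-Hochberg adjusted p under 0.05 in each of the 3 comparisons, where the share of all genes called in either direction was 0.801% for delaminating minus posterior, 0.576% for posterior minus anterior and 3.82% for delaminating minus anterior cells.

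**Figure D1:**
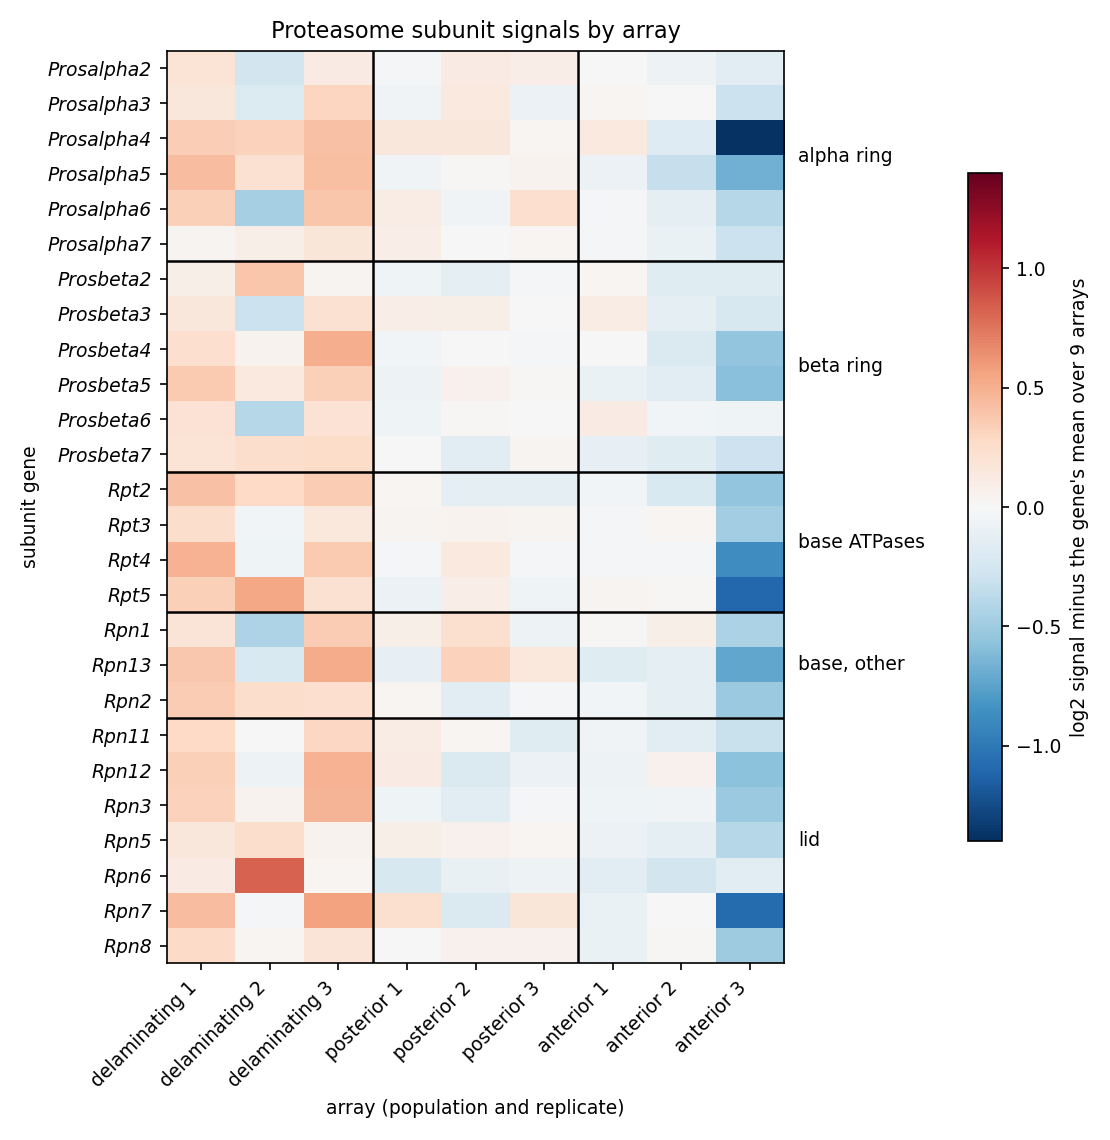
Each cell gives the log2 signal of a subunit gene (row) on an array (column) minus that gene's mean over the 9 arrays, with genes in blocks by their place in the proteasome and arrays by population. The subunits were lowest of all 9 arrays on anterior replicate 3 for 21 of 26 genes and highest on delaminating replicate 3 for 13 and on delaminating replicate 1 for 9.

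Delaminating cells were first set against posterior cells, the RFP-positive cells without the MMP1-GFP signal. Of the 26 subunit genes, 22 had a higher mean in delaminating cells, with a median log2 difference of 0.23 beside -0.003 over all genes. In 11 genes (42.3%) the 3 delaminating values lay wholly above the 3 posterior values, and in 0 wholly below, against 10.7% and 11.5% of all genes. The differences were small, from -0.05 to 0.46, and limma called 0, against 0.643% of all genes called higher and 0.159% lower. At an unadjusted p under 0.05, 1 gene, Rpt2, was higher and 0 were lower, against 5.31% and 4.67% of all genes.

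Rpt2, an ATPase of the base that helps to open the gate of the core, had signals of 11.78, 11.66 and 11.73 in delaminating cells, against 11.40, 11.23 and 11.24 in posterior cells. The groups did not overlap, and the log2 difference of 0.43 ± 0.17 (SE, n = 3 arrays per group) amounted to 1.35-fold (limma adjusted p = 0.413). Rpt5, another ATPase of the same ring, had 10.54, 10.75 and 10.42 in delaminating cells and 10.13, 10.30 and 10.15 in posterior cells, a difference of 0.38 ± 0.29 (limma adjusted p = 0.772). Both ATPases were thus higher on every delaminating array than on any posterior array, by amounts that limma did not call.

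Rpn6, a lid subunit that braces the lid against the core, had the largest difference of the 26, 0.46 ± 0.21 (limma adjusted p = 0.537). Most of it rested on a single array. Signals were 11.86, 12.57 and 11.78 in delaminating cells and 11.53, 11.64 and 11.68 in posterior cells, and without delaminating replicate 2 the difference was 0.20 (limma adjusted p = 0.832). That is the array with the high hemocyte markers. Rpn3, a neighbouring lid subunit, had its highest values elsewhere, with 11.07, 10.80 and 11.22 in delaminating cells and 10.69, 10.61 and 10.73 in posterior cells. Its groups did not overlap, at a difference of 0.35 ± 0.19 (limma adjusted p = 0.602).

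Among the protease subunits of the beta ring, Prosbeta2, which carries the trypsin-like site, had 12.43, 12.74 and 12.39 in delaminating cells and 12.28, 12.23 and 12.33 in posterior cells. Prosbeta5, which carries the chymotrypsin-like site, had 11.20, 10.98 and 11.17 in delaminating cells and 10.77, 10.90 and 10.86 in posterior cells. In both genes every delaminating value exceeded every posterior value, by 0.24 ± 0.16 for Prosbeta2 and 0.27 ± 0.18 for Prosbeta5 (limma adjusted p = 0.729 and 0.706). Without delaminating replicate 2 the Prosbeta2 difference was 0.13. Prosbeta7, a structural subunit of the same ring, was the steadiest in delaminating cells, with 11.45, 11.51 and 11.52 against 11.26, 11.11 and 11.30 in posterior cells (difference 0.27 ± 0.15, limma adjusted p = 0.61).

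Other subunits had no such offset. Rpn1, a scaffold of the base that docks ubiquitin receptors, had the lowest difference, -0.05 ± 0.24, with 11.09, 10.47 and 11.26 in delaminating cells and 11.00, 11.13 and 10.84 in posterior cells. Prosalpha2 of the alpha ring had 12.22, 11.76 and 12.14 in delaminating cells and 11.99, 12.14 and 12.11 in posterior cells, a difference of -0.04 ± 0.17. Prosbeta3 of the beta ring had 11.98, 11.52 and 12.03 in delaminating cells and 11.91, 11.90 and 11.81 in posterior cells, a difference of -0.03 ± 0.18. In all 3 genes delaminating replicate 2 was the lowest value of its group, and the other delaminating arrays lay near or above the posterior values.

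That array divided the subunits. Delaminating replicate 2 was the lowest of its group for 19 of 26 subunit genes, against 45.6% of all genes, and the highest for 4, which were Prosbeta2, Rpt5, Rpn5 and Rpn6. Prosalpha6 of the alpha ring spread most, with 11.02, 10.22 and 11.07 (SD 0.48). Without delaminating replicate 2 the difference from posterior cells moved by over 1.5 times in 15 genes, and all 26 means were higher in delaminating than in posterior cells. The delaminating values then lay wholly above the posterior ones for 23 genes, against 18.3% of all genes with the same arrays, while the median difference was 0.26 and limma again called 0. Since the array left out was the lowest more often for the subunits than for all genes, that share does not allow for the choice of array. The 3 posterior arrays agreed closely, with a median SD of 0.08 over the subunits, against 0.20 in delaminating and 0.26 in anterior cells, and 0.17 over all genes in posterior cells.

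**Figure D2:**
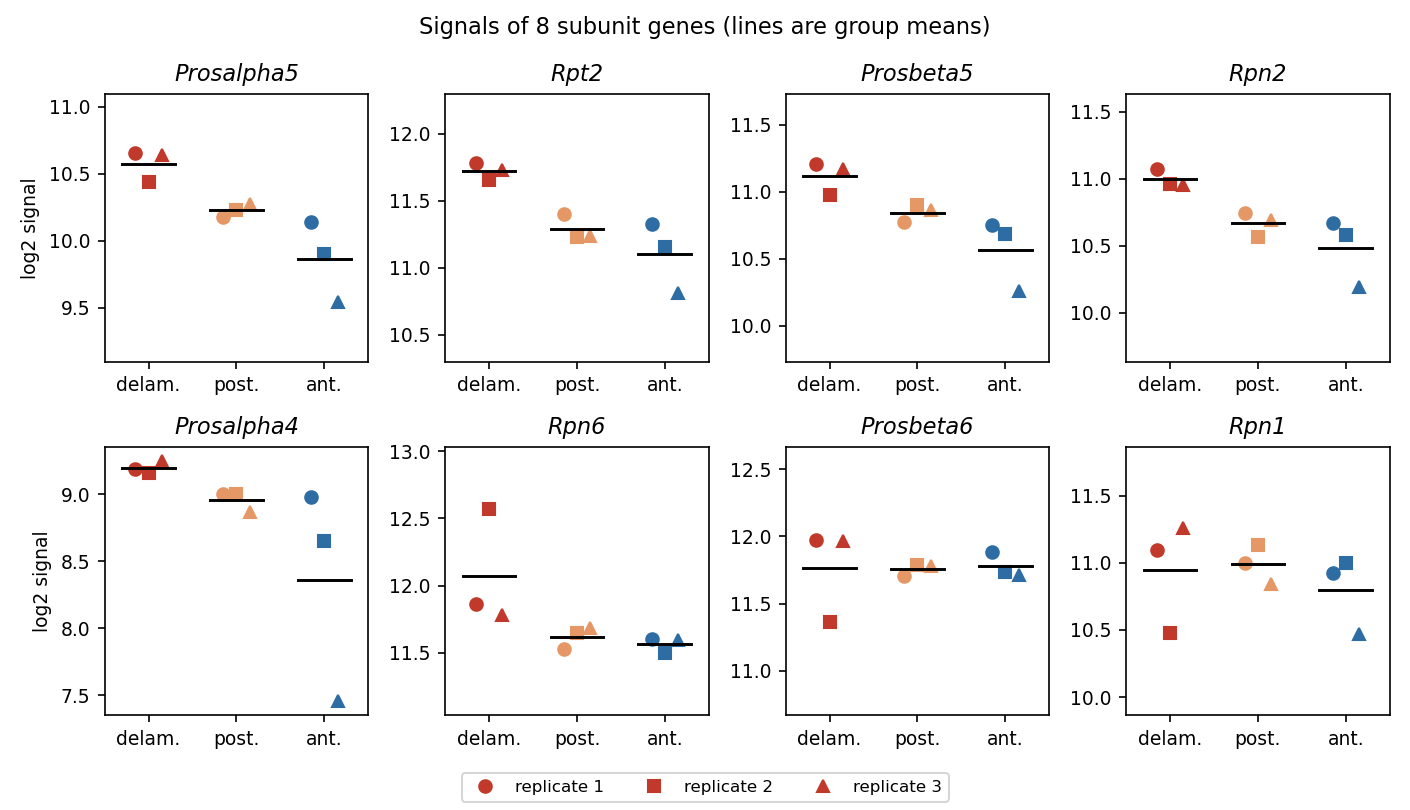
Log2 signals of 8 subunit genes on each array, by population, with the marker shape as the replicate and a line at the group mean, each panel spanning 2 log2 units. Rpt2, Rpn2, Prosalpha5 and Prosbeta5 had delaminating values wholly above posterior ones, while Prosbeta6 and Rpn1 overlapped.

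The interval of each difference shows how large it could be for a single gene, without the adjustment over all genes that the calls carry. Over the 26 genes the upper 95% limits of the delaminating minus posterior difference ran from 0.34 for Prosalpha2 to 1.02 for Rpt5, and the half-width of the interval had a median of 0.41. A doubling in delaminating cells thus lay outside the interval for every subunit but Rpt5. The median difference of this comparison, 0.23, was smaller than that median half-width.

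Posterior cells were next set against anterior cells, which asks about asp knockdown with p35 but also includes compartment identity and the muscle precursor markers given above, which summed lower on every posterior than on every anterior array. The hemocyte markers were mixed, with 6 of 9 lower in posterior cells. Of the 26 subunit genes 25 had a higher mean in posterior cells, at a median log2 difference of 0.19 beside 0.09 over all genes, of which 60.7% lay above 0. The posterior values lay wholly above the anterior ones in 6 genes (23.1%) and below in 0, against 11.9% and 6.47% of all genes. limma called 0, against 0.0918% of all genes called higher and 0.484% lower. At an unadjusted p under 0.05, 0 were higher and 0 lower, against 5.98% and 3.61% of all genes.

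Prosalpha4, an alpha ring subunit encoded on the X chromosome, had the largest difference, 0.59 ± 0.33 (limma adjusted p = 0.563). Its signals were 9.002, 9.001 and 8.864 in posterior cells and 8.98, 8.65 and 7.46 in anterior cells, and anterior replicate 3 was the lowest by more than a log2 unit. Rpn13, a ubiquitin receptor of the base, had 10.31, 10.74 and 10.57 in posterior cells and 10.25, 10.30 and 9.70 in anterior cells, with groups that were barely apart (0.46 ± 0.25, limma adjusted p = 0.563). Rpn7, a lid subunit, had 10.65, 10.22 and 10.59 in posterior cells and 10.33, 10.41 and 9.34 in anterior cells, and its groups overlapped (0.45 ± 0.29, limma adjusted p = 0.575). In all 3 genes the lowest of the 6 values was anterior replicate 3, and without it the differences were 0.14 for Prosalpha4, 0.27 for Rpn13 and 0.11 for Rpn7.

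Prosbeta6, a subunit of the beta ring, had the smallest difference, with 11.71, 11.79 and 11.78 in posterior cells and 11.89, 11.73 and 11.71 in anterior cells (-0.02 ± 0.19). Prosbeta2 had 12.37, 12.18 and 12.17 in anterior cells, a difference of 0.04 ± 0.16, and Rpn6 had 11.60, 11.50 and 11.60, a difference of 0.05 ± 0.21. These genes showed hardly any offset between the posterior and anterior populations.

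The offset of the subunits against anterior cells depended on an array. Anterior replicate 3 was the lowest of its group for 25 of 26 subunit genes, against 59.2% of all genes. The subunits were bright, with gene means from 8.84 to 12.35. On that array the upper quartile over genes was lower than on the others, but the lower quartile was higher (6.53, against 6.39 to 6.46). The share of all genes does not allow for signal level. Without anterior replicate 3 the difference moved by over 1.5 times in 23 genes. The median posterior minus anterior difference was then 0.08, with 21 of 26 genes above 0, beside 0.01 over all genes, and 6 genes did not overlap, against 14.7% of all genes with those arrays. With all arrays the 6 genes whose groups did not overlap were Prosalpha5, Prosalpha7, Prosbeta5, Rpt3, Rpn13 and Rpn5. Rpn5, a lid subunit, had 12.11, 12.08 and 12.05 in posterior cells and 11.94, 11.88 and 11.62 in anterior cells (0.26 ± 0.16, limma adjusted p = 0.565), or 0.16 without anterior replicate 3.

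Delaminating cells stood farthest from anterior cells. Of the 26 subunit genes 25 had a higher mean in delaminating cells, at a median log2 difference of 0.43 beside 0.05 over all genes. The delaminating values lay wholly above the anterior ones in 15 genes (57.7%) and below in 0, against 13.2% and 8.05% of all genes. limma called 0, against 2.4% of all genes called higher and 1.43% lower. At an unadjusted p under 0.05, 13 genes were higher and 0 lower, against 10.8% and 5.77% of all genes. This comparison shares its arrays with both others, so it adds no independent observation.

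Prosalpha5, an alpha ring subunit, came nearest to a call. It had 10.65, 10.44 and 10.64 in delaminating cells, 10.17, 10.23 and 10.27 in posterior cells and 10.14, 9.90 and 9.54 in anterior cells, so that each population lay wholly above the next. The delaminating minus anterior difference was 0.71 ± 0.18 or 1.64-fold (95% interval 0.31 to 1.12, limma adjusted p = 0.0649). It passed the test in 6 of 19 alternative settings, with adjusted p from 0.00214 to 0.208. Rpt2 followed, with 11.33, 11.16 and 10.81 in anterior cells and a difference of 0.62 ± 0.17 or 1.54-fold (limma adjusted p = 0.0887). In Rpt2 the delaminating values again exceeded all others.

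Prosbeta5, with 10.75, 10.68 and 10.26 in anterior cells, was 1.47-fold higher in delaminating cells (0.55 ± 0.18, limma adjusted p = 0.139). Prosbeta4 of the same ring had 10.36, 10.17 and 10.62 in delaminating cells and 10.12, 9.92 and 9.57 in anterior cells, at 0.52 ± 0.19 (limma adjusted p = 0.208). Prosbeta7 had 11.15, 11.09 and 10.97 in anterior cells, at 0.42 ± 0.15 (limma adjusted p = 0.175). These 3 genes of the beta ring had groups that did not overlap, as did Prosbeta2 with a smaller difference of 0.28 ± 0.16 (0.17 without delaminating replicate 2). Prosbeta3 had 11.91, 11.68 and 11.59 in anterior cells, at 0.11 ± 0.18, and overlapped. Prosbeta6, with 11.97, 11.36 and 11.97 in delaminating cells, overlapped as well, at -0.01 ± 0.19. Prosalpha2 of the alpha ring had 12.02, 11.95 and 11.86 in anterior cells and overlapped at 0.09 ± 0.17. In all, 4 of the 6 measured genes of the beta ring had delaminating values wholly above the anterior ones, against 13.2% of all genes.

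In the base, Rpn2, a large scaffold subunit, had 11.08, 10.96 and 10.95 in delaminating cells and 10.67, 10.58 and 10.19 in anterior cells (0.52 ± 0.17, limma adjusted p = 0.156). Rpt5 had 10.24, 10.23 and 9.10 in anterior cells, at 0.71 ± 0.29 (limma adjusted p = 0.248), or 0.33 without anterior replicate 3. Rpn13 had 10.80, 10.21 and 10.94 in delaminating cells and stood at 0.57 ± 0.25 with overlapping groups (limma adjusted p = 0.286). In the lid, Rpn7 differed by 0.72 ± 0.29 with 10.86, 10.41 and 10.98 in delaminating cells, and overlapped the anterior values. Its difference was 0.38 without anterior replicate 3, as was that of Rpn13. Rpn3, with 10.69, 10.70 and 10.24 in anterior cells, differed by 0.49 ± 0.19, and Rpn6 by 0.51 ± 0.21, or 0.26 without delaminating replicate 2. Rpn5 had 12.18, 12.27 and 12.07 in delaminating cells, wholly above the anterior values (0.36 ± 0.16, limma adjusted p = 0.292). Prosalpha4 had 9.18, 9.16 and 9.25 in delaminating cells, which agreed closely, and its difference of 0.83 ± 0.33 from anterior cells was the largest of the 26 (1.78-fold, limma adjusted p = 0.236). Without anterior replicate 3 it was 0.38, below the 0.56 of Prosalpha5. The SD of its anterior values was 0.80, the largest of the 26.

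The sub-complexes were also summarised apart. In delaminating minus posterior cells the median log2 difference was 0.07 over the 6 alpha ring genes, 0.25 over the 6 beta ring genes, 0.30 over the 4 ATPases, 0.11 over the other 3 base genes and 0.26 over the 7 lid genes. All 7 lid genes and all 4 ATPases lay above 0 there, against 4 of 6 in the alpha ring, where Prosalpha2 and Prosalpha6 lay just below 0. That contrast rested on delaminating replicate 2, since without it all 6 alpha ring genes lay above 0 at a median of 0.24, and the other 3 base genes stood at 0.33. In delaminating minus anterior cells the same medians were 0.25, 0.35, 0.59, 0.52 and 0.44. Without anterior replicate 3 they were 0.16, 0.31, 0.31, 0.37 and 0.30, and without delaminating replicate 2 the alpha ring stood at 0.43. Differences between these sub-complexes were not tested. Of the subunits not named so far, Prosalpha3, Prosalpha7, Rpt4, Rpn8, Rpn11 (the deubiquitinase of the lid) and Rpn12 had delaminating minus posterior differences from 0.06 to 0.30. Sem1, a small lid subunit whose symbol is outside the naming rule, stood at 0.32 ± 0.18 (limma adjusted p = 0.639).

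**Figure D3:**
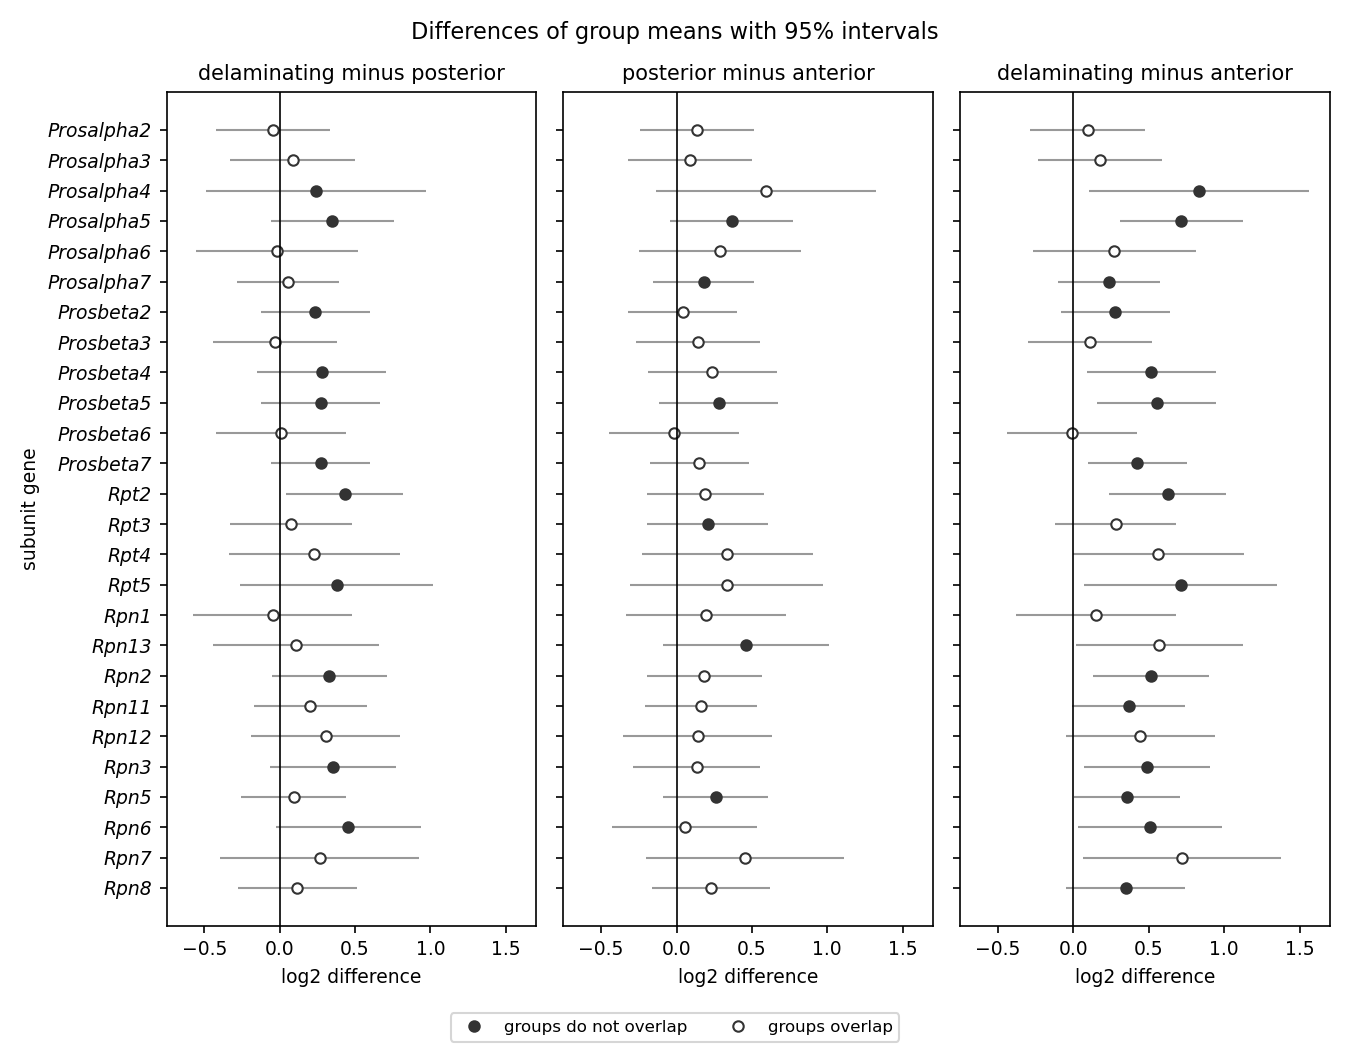
Log2 differences of group means for the 26 subunit genes in 3 comparisons, with 95% intervals from limma, filled where the values of the groups did not overlap and open where they did. Most points lie above 0, and 11, 6 and 15 of 26 are filled from left to right.

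The comparison with anterior cells was repeated without the arrays that stood apart. Without anterior replicate 3 the difference moved by over 1.5 times in 15 genes, and the median delaminating minus anterior difference was 0.29 with 24 of 26 genes above 0, beside 0.001 over all genes, and 15 genes did not overlap, against 17.7% of all genes with those arrays. Without delaminating replicate 2 the median was 0.50, and all 26 genes lay wholly above the anterior values, against 20.8% of all genes. That array was the lowest of its group for 19 of the 26, against 45.6% of all genes. Leaving it out therefore favoured the subunits in such counts, and the share of all genes does not allow for this. The counts were redone only without the arrays that stood apart, not with each array left out. With both arrays left out all 26 again lay above, at a median of 0.38, against 26.8% of all genes, and limma called 1, Prosalpha5 (0.63, adjusted p = 0.0429), against 2.82% of all genes called higher. With an intensity trend and robust variances limma called 3, Prosalpha5, Prosbeta7 and Rpt2, against 3.1% of all genes. It called 1 with the dimmest genes left out (3.94% of all genes), 1 with each array centred on its median (2.25%) and 1 without anterior replicate 1 (2.2%). Array weights give less weight to arrays that stand apart. With them limma called 11 of the 26 higher in delaminating than in anterior cells, against 9.27% of all genes. It called 1, Rpt2, higher in delaminating than in posterior cells, against 3.6%. Prosalpha2, Prosalpha6, Prosbeta3 and Rpn1, below 0 in delaminating minus posterior cells, lay above 0 with the weights, as they did without delaminating replicate 2. The shares of all genes with array weights do not allow for that array's low subunit values either.

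Other complexes gave a scale for these offsets. The 8 CCT genes encode the chaperonin that folds actin and tubulin. All 8 lay above 0 in delaminating minus posterior cells, at a median of 0.20, with 4 wholly above, against 49.5% of all genes above 0 and 10.7% wholly above. CCT1 was farthest, at 12.40, 12.79 and 12.35 in delaminating cells and 12.09, 12.12 and 12.05 in posterior cells (0.43 ± 0.18, limma adjusted p = 0.433). The 8 genes of the COP9 signalosome, a regulator of ubiquitin ligases built like the proteasome lid, had 2 above 0 and a median of -0.04. CSN4 of that complex was lower, at -0.47 ± 0.28 (limma adjusted p = 0.667), with its groups apart. The 37 cytoplasmic ribosomal protein genes had 17 above 0 and a median of -0.01. In posterior minus anterior cells 8 CCT, 8 COP9 and 12 ribosomal protein genes lay above 0, against 60.7% of all genes. The medians there were 0.08, 0.17 and -0.02, beside 0.19 for the subunits. In delaminating minus anterior cells 8, 6 and 14 lay above 0, at 0.28, 0.16 and -0.04, against 56.2% of all genes. On anterior replicate 3 the COP9 genes stood at a median deviation of -0.47 and the subunits at -0.49. limma called 0 genes of these lists in each of the 3 comparisons, and at an unadjusted p under 0.05 delaminating against posterior cells had 1 CCT gene, 0 COP9 genes and 0 ribosomal protein genes, against 5.31% of all genes higher and 4.67% lower. Whether the proteasome genes differed from these lists was not tested.

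**Figure D4:**
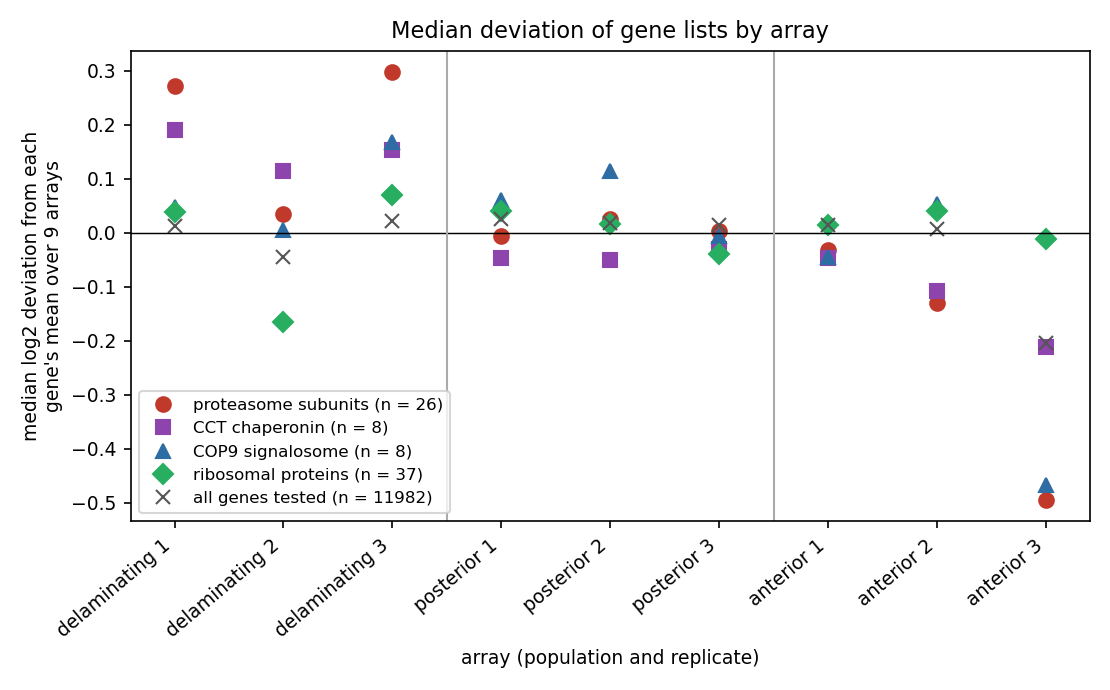
Median, over the genes of each list, of the log2 signal minus the gene's mean over the 9 arrays, for each array in the 3 populations. The proteasome subunits stood at 0.27, 0.04 and 0.30 on the delaminating arrays, between -0.01 and 0.03 on the posterior arrays and at -0.03, -0.13 and -0.49 on the anterior arrays, where all genes stood at -0.20 on anterior replicate 3.

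limma also called 0 genes that regulate the proteasome or deliver substrates to it in each comparison. Of 11 regulators 8 lay above 0 in delaminating minus posterior cells, at a median of 0.05, with 0 at an unadjusted p under 0.05, against 5.31% of all genes higher. In posterior minus anterior cells 11 of 11 lay above 0, at 0.26, with 0 at that threshold, against 60.7% of all genes above 0 and 5.98% higher at that threshold. In delaminating minus anterior cells 10 of 11 lay above 0, at 0.45, with 4 higher at that threshold, against 56.2% and 10.8% of all genes. The regulators' median deviation from each gene's mean over the 9 arrays was -0.01 and -0.02 on anterior replicates 1 and 2. On anterior replicate 3 it was -0.59, where all genes stood at -0.20. The regulators were not summarised again without that array. cnc, the Nrf factor gene, had 9.16, 9.28 and 9.01 in delaminating cells, 9.23, 9.15 and 8.95 in posterior cells and 8.91, 8.85 and 7.87 in anterior cells. Its delaminating minus posterior difference was 0.04 ± 0.27 and its posterior minus anterior difference 0.57 ± 0.27 (limma adjusted p = 0.531), with the lowest value again on anterior replicate 3.

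Usp14, a deubiquitinase that binds the base, had 10.37, 10.73 and 10.40 in delaminating cells, 10.16, 10.14 and 10.20 in posterior cells and 10.06, 9.95 and 9.39 in anterior cells. Its 3 populations did not overlap, and the delaminating minus anterior difference was 0.70 ± 0.20 (limma adjusted p = 0.106). Uch-L5, another deubiquitinase that binds the base, was lower in delaminating cells, with 9.18, 9.33 and 9.21 in delaminating cells against 9.49, 9.48 and 9.60 in posterior cells (-0.28 ± 0.17, limma adjusted p = 0.672). Keap1, which restrains Cnc, had 9.24, 9.93 and 8.68 in delaminating cells and 8.97, 8.63 and 7.91 in anterior cells, at 0.78 ± 0.34 with overlapping groups. ntc, an F-box protein gene, lay at 4.65 to 5.70 over the 9 arrays, below the arrays' lower quartiles.

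Of 12 measured genes of ubiquitin supply, conjugation and substrate delivery, 6 lay above 0 in delaminating minus posterior cells, 12 in posterior minus anterior cells and 11 in delaminating minus anterior cells, at medians of 0.05, 0.29 and 0.28, where 49.5%, 60.7% and 56.2% of all genes lay above 0. At an unadjusted p under 0.05 the same comparisons had 0, 1 and 3 higher and 0 lower, against 5.31%, 5.98% and 10.8% of all genes higher. ref(2)P, the fly p62, an autophagy receptor that gathers ubiquitinated proteins, had 11.35, 10.90 and 11.67 in delaminating cells, 10.99, 10.50 and 11.17 in posterior cells and 10.66, 10.57 and 10.21 in anterior cells. The delaminating values lay above the anterior ones, at 0.83 ± 0.25 (limma adjusted p = 0.118), and overlapped the posterior ones (0.42 ± 0.25, limma adjusted p = 0.668). STUB1, a ubiquitin ligase gene that works with chaperones, differed by 0.71 ± 0.29 in posterior minus anterior cells (limma adjusted p = 0.49). It had 6.75, 7.22 and 7.01 in posterior cells and 6.72, 6.42 and 5.71 in anterior cells, the last below the arrays' lower quartiles. The polyubiquitin gene Ubi-p5E differed by 0.35 ± 0.17 in the same comparison (limma adjusted p = 0.542), also with its lowest value on anterior replicate 3. Npl4, a cofactor of the unfoldase TER94, had delaminating values wholly below the posterior ones (-0.25 ± 0.16, limma adjusted p = 0.714).

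The paralogs were dim and showed no common direction. Their signals ran from 4.24 to 7.72, and 5 of the 14 (Prosalpha3T, Prosbeta4R1, Prosbeta4R2, Prosbeta5R1 and Rpn12R) lay below the lower quartile on all 9 arrays. Only Prosalpha4T2, Prosbeta2R1 and Prosbeta2R2 reached the lower quartile on every array. In delaminating minus posterior cells 7 of 14 lay above 0, at a median of 0.001, and in delaminating minus anterior cells 6 of 14, at -0.02. limma called 0 of the 14 in any comparison. Prosbeta5R2, a paralog of Prosbeta5, was the exception at an unadjusted p under 0.05 in both comparisons with anterior cells (5.98% and 10.8% of all genes higher), with 7.72, 7.35 and 6.98 in delaminating, 7.39, 6.93 and 7.24 in posterior and 6.72, 5.64 and 6.82 in anterior cells. Its differences from anterior cells were 0.96 ± 0.32 for delaminating and 0.79 ± 0.32 for posterior cells (limma adjusted p = 0.16 and 0.485). Rpn13R, a paralog of Rpn13, had 6.47, 6.22 and 6.26 in delaminating cells, below the 7.03, 6.79 and 6.58 in posterior cells (-0.48 ± 0.27, limma adjusted p = 0.635).

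**Figure D5:**
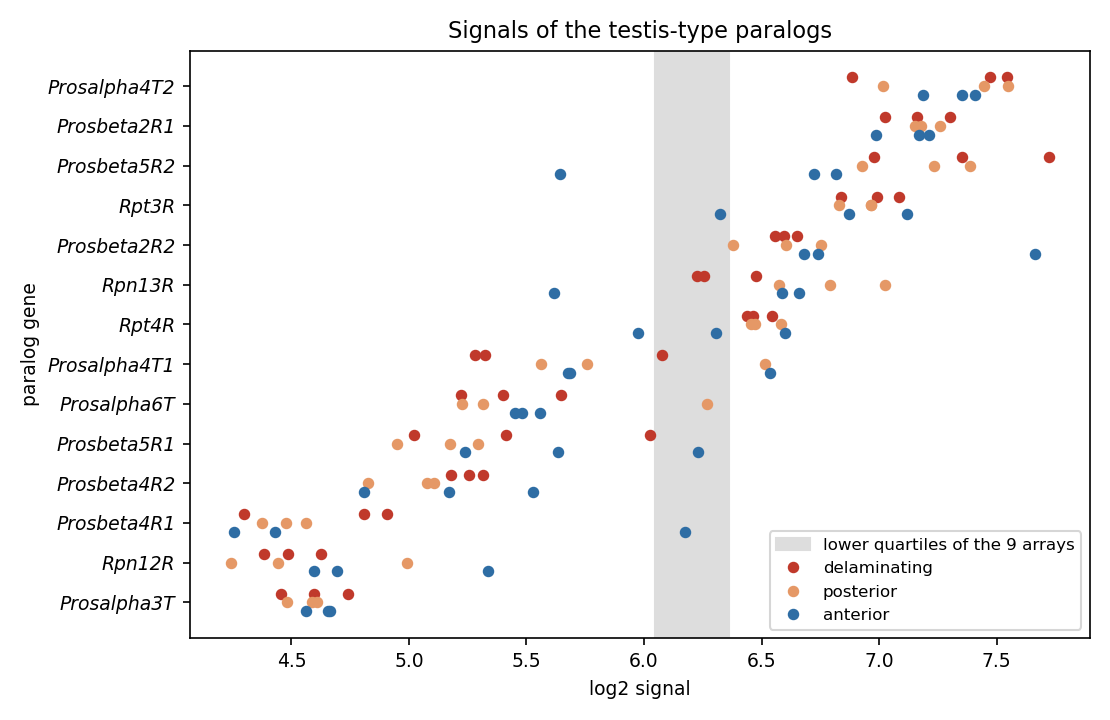
Log2 signals of the 14 paralog genes on each of the 9 arrays, coloured by population, with the range of the arrays' lower quartiles (6.05 to 6.36) as a grey band. For 5 genes each value lies below the lower quartile of its own array, and the populations overlap for nearly all of the genes.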

How the data were processed

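The deposited values were log2 signals that the authors made with RMA, per the submitters' processing notes; the version, annotation and genome build were not given in the sources used here. Of 18952 probe sets, 183 controls were left out, and 13647 of the others carried 1 gene symbol, 402 several and 4720 none. Each of the 11982 genes was read from its brightest probe set by mean signal (1094 genes had several), and 11893 matched the RefSeq annotation of assembly GCF_000001215.4 by gene identifier. limma 3.58.1 in R 4.3.3 fitted a mean per population to all 9 arrays with moderated variances, and its two-sided p-values were adjusted by Benjamini-Hochberg over all genes. Called means an adjusted p under 0.05; the SE and 95% interval are limma's. The fit was tested on simulated data, with planted differences larger than any of the subunit genes and no array that stood apart. That test does not show how well differences as small as those reported here would be found.

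All members found by the naming rule are reported; values by array are given for those with an unadjusted p under 0.05, the 3 highest and 3 lowest differences of each comparison, and the catalytic subunits measured. The members and gene lists were chosen with earlier results of these data known. Alternatives were a replicate block, a filter on dim genes, further normalization, other probe set rules, other variance models, array weights and each array left out; a fit without both delaminating replicate 2 and anterior replicate 3 was chosen after seeing the data. For arrays, their number limits the precision. Promoter motifs were not analysed here.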

Additional observations from a re-analysis of the deposited data

How the results depend on the processing

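Of the 26 subunit genes, limma called 0 in posterior against anterior cells under all 19 alternative settings. In delaminating against posterior cells it called 1 with array weights and 0 under the other 18. In delaminating against anterior cells it called 1 with the dimmest 25% of genes left out, 1 with each array centred on its median, 3 with an intensity trend and robust variances, 11 with array weights, and 1 without anterior replicate 3 and delaminating replicate 2. Leaving out each array in turn gave 0 to 1 calls there, the 1 being Prosalpha5 without anterior replicate 1 (adjusted p = 0.0472), and 0 to 0 in the other comparisons. The replicate block gave 0 calls in each comparison and changed no call. Same-numbered arrays of different populations had deviations correlated from -0.12 to 0.181, and differently numbered ones from -0.181 to 0.146. The labels do not say what a number marks, and correlations this weak cannot settle whether the numbers paired the arrays. The median log2 difference moved by less than 0.18 under every setting. That is the SD of the subunits' array medians within populations, which includes the arrays that stood apart. It is nearly as large as the posterior minus anterior median of 0.19, so a smaller move does not show that median to be stable. In delaminating minus posterior, posterior minus anterior and delaminating minus anterior cells the median was 0.23, 0.19 and 0.43 in the main fit. It was 0.22, 0.08 and 0.29 with quantile normalization applied again, and 0.24, 0.09 and 0.34 with each array centred on its median. With each array left out it ranged from 0.16 to 0.26, 0.08 to 0.28 and 0.29 to 0.50. Single uncalled differences turned sign in 21, 20 and 7 of 494 values in these comparisons. The largest of them in the main fit was that of Rpt5 in posterior minus anterior cells, 0.33. It was -0.04 without anterior replicate 3 and -0.02 with array weights. Prosalpha3, Rpn12 and Rpn3 turned sign in the same comparison and settings. The cause of the added calls was not tested. Dim signal limits what could be seen of the paralogs.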

Other observations

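A probe set that the probe table assigns to both Prosalpha1 and Prosalpha1R, neighbouring copies of an alpha ring gene, was left out of the tests by gene. Its signals were 11.61, 11.31 and 11.64 in delaminating cells, 11.45, 11.51 and 11.46 in posterior cells and 11.32, 11.40 and 11.07 in anterior cells, and the copies cannot be told apart on it. Prosap, which shares only the start of its symbol with the proteasome genes, had 3 probe sets, with delaminating minus posterior differences of -0.28, -0.13 and -0.37 and posterior minus anterior differences of 0.44, 0.31 and 0.71.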
